A study of Mus musculus with 22 samples.

Results

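The genes described here code for hypothalamic neuropeptides (*Oxt*, *Avp*, *Trh*, *Hcrt*, *Pmch*, *Pomc*, *Agrp* and *Gnrh1*) or for transcription factors of hypothalamic neurons (*Otp* and *Sim1*). They are 10 genes, given as a list of names and matched by Ensembl identifier, among 39179 gene identifiers counted in every sample. RNA was sequenced from 22 samples of WT and *Phf8* KO genotype on a B6x129SvJ background. Ventral striatum (STR) and prefrontal cortex (PFC) of mice aged 2 months gave 3 WT and 3 KO samples each. Neural progenitor cells (NPCs), taken from E16.5 embryos and grown as a monolayer, gave 3 WT and 3 KO samples, and embryonic stem cells (ESCs), grown out of blastocysts and kept on gelatin or feeder cells, gave 2 and 2. Phf8 is an X-linked histone demethylase, and the KO allele lacks exons that code for part of its catalytic JmjC domain. The allele was made by Cre in cultured ESC clones before mice were raised from them, so it is not limited to a cell type. Nothing in the labels says that samples of a group came from separate animals or cultures, and the p-values below therefore measure the spread between these samples.

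Hypothalamic peptide neurons lie in nuclei around the third ventricle, below the striatum and behind the basal forebrain, and each nucleus makes its own peptides. Magnocellular neurons of the paraventricular and supraoptic nuclei make oxytocin and vasopressin for release from the posterior pituitary, and their formation needs Otp and Sim1. Orexin (*Hcrt*) and melanin-concentrating hormone (*Pmch*) belong to the lateral hypothalamus, *Pomc* and *Agrp* to the arcuate nucleus, and GnRH neurons are scattered from the septum to the preoptic area.

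*Oxt* and *Avp* are neighbours that arose by duplication, and their reading frames show it. On GRCm38, *Oxt* (ENSMUSG00000027301) lies on the plus strand of chromosome 2 from 130576173 to 130577054, and *Avp* (ENSMUSG00000037727) on the minus strand from 130580620 to 130582554. *Gnrh1* (ENSMUSG00000015812) lies on the plus strand of chromosome 14 from 67745181 to 67749439. The stretches below are shown because they code for the hormones whose transcripts the results turn on. The *Oxt* stretch is in exon 1 at chr2:130576267-130576302 and the *Avp* stretch in exon 1 at chr2:130582437-130582472. Each holds the 9 codons of the peptide and 3 codons of its cleavage signal. The *Gnrh1* stretch, in exon 2 at chr14:67746409-67746447, holds 10 codons of the peptide and 3 of its cleavage signal.
Oxt: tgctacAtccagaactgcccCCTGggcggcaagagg
Avp: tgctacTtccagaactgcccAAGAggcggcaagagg
Gnrh1: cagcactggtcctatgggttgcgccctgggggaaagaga
Capitals mark the bases that differ between *Oxt* and *Avp*. The pair differed at 5 of 36 bases and at 3 codons.

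The 250 bases before the start sites of *Oxt* and *Avp*, from the RefSeq promoter table on GRCm38.p6, are shown because the levels of both genes moved together in STR. RefSeq entries were matched for 8 of the 10 genes. The *Oxt* window is chr2:130575919-130576168 on the plus strand and the *Avp* window chr2:130582589-130582838 on the minus strand.
Oxt: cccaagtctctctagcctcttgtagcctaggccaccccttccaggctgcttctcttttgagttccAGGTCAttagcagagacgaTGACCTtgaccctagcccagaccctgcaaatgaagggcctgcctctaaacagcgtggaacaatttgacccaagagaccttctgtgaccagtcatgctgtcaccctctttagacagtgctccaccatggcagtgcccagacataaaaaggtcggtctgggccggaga
Avp: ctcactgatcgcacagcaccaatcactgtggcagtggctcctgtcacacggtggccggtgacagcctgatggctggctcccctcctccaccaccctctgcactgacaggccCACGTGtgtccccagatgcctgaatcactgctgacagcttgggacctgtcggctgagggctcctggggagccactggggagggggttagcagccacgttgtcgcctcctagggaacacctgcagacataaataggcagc
Capitals mark AGGTCA, the half-site of many nuclear receptors, and CACGTG, the E-box that circadian bHLH factors bind, each searched on both strands and with no overlap between them. The *Oxt* window held AGGTCA 2 times, once as its reverse complement, and the *Avp* window held CACGTG once. AGGTCA was present in 14.0% of 32851 promoter windows of that length, among them those of *Oxt*, *Trh* and *Pomc*. CACGTG was present in 6.02%, among them that of *Avp*. Neither motif was in both windows.

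Reads counted on genes ranged from 7159094 to 8594441 per STR sample and from 5898286 to 10148073 per PFC sample. Levels below are in CPM, counts scaled to a common total of reads counted on genes, and a count of 3, taken as the floor of detection, came to 0.349 to 0.419 CPM in STR and 0.296 to 0.509 CPM in PFC. *Phf8* itself averaged 53.7 CPM in WT STR (SD 3.998, n = 3) against 20.7 CPM in KO STR (SD 5.09, n = 3). In PFC its means were 47.6 CPM for WT and 18.3 CPM for KO (SD 5.07 and 3.52, n = 3 each). Striatal projection neuron genes summed to 2147 to 2919 CPM in STR and to 467 to 542 CPM in PFC, so they were far higher in the region labelled striatum. The library of STR KO replicate 1 stood apart from the other STR libraries in several marker lists, described below. The STR fold changes and interactions of the listed genes, and the counts and medians of the marker lists, are also given without it. In bulk tissue, fewer cells of a type and less RNA per cell cannot be told apart.

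In STR, *Oxt*, *Avp*, *Trh* and *Gnrh1* were higher in each of the 3 KO samples than in each of the 3 WT samples, whereas *Otp* and *Sim1* stood out in 1 KO sample alone. *Pomc* overlapped between genotypes. *Hcrt*, *Pmch* and *Agrp* had at most 10 counts in any brain sample. By edgeR's quasi-likelihood test over 15476 genes, none of the 5 genes that passed the expression filter was called at an FDR under 0.05, and neither was any other gene (0% of those tested). At an unadjusted p under 0.05 the test listed 4 of the 5, each as higher, against 5.67% of all genes tested listed as higher and 8.70% in either direction, and the 5 that failed the filter had no test. *Oxt*, *Avp* and *Gnrh1* reached the level of the filter through their KO samples, so this count is a description and supports nothing further. On the same samples DESeq2 called *Oxt* (adjusted p 0.0152), and edgeR's exact test called *Gnrh1*, *Oxt* and *Avp*, so whether these genes pass depends on the test. Over all genes, DESeq2 called 42 of 14928 as higher, and the exact test 74 of 15476. With 3 samples against 3, an exact permutation test cannot go below p = 0.1.

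**Figure D1:**
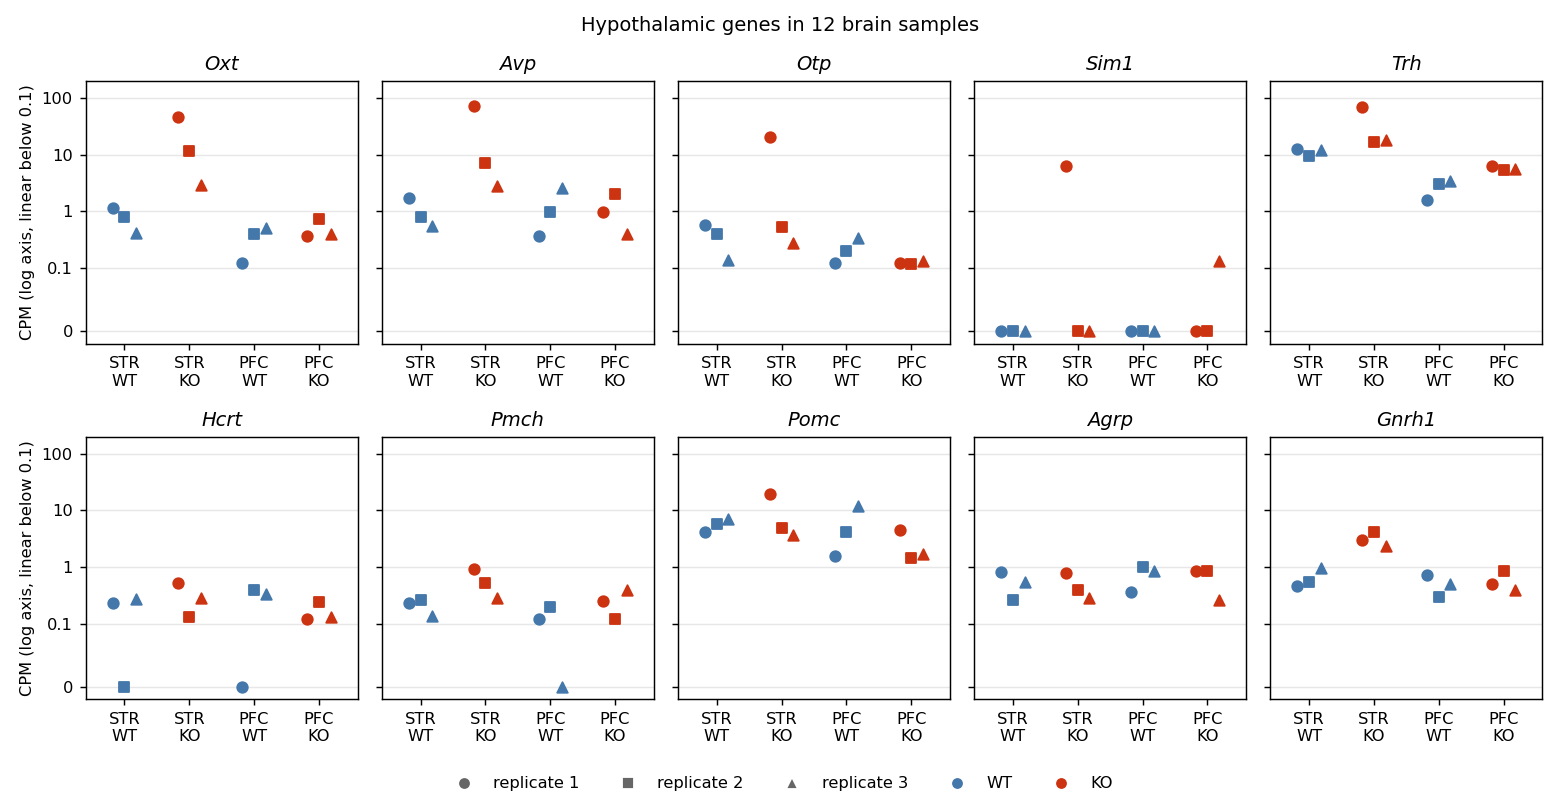
Level of each of the 10 genes in the 12 brain samples, in CPM on an axis that is logarithmic above 0.1 and linear below it, with WT in blue, KO in red and the replicate number as the point's shape. *Oxt*, *Avp*, *Otp*, *Sim1* and *Trh* have their highest point in STR KO replicate 1, and *Gnrh1* has its highest in STR KO replicate 2.

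*Oxt* codes for the precursor of oxytocin, the hormone of milk let-down and labour and a signal in social behaviour. Its level in the WT STR samples was 1.16, 0.798 and 0.414 CPM in replicates 1, 2 and 3, and in the KO samples 45.9, 11.4 and 2.93 CPM. The groups did not overlap, and replicate 1 lay far above the other KO samples, so that the KO mean of 20.1 CPM had an SD of 22.8 CPM (n = 3). Over the pooled WT level of 0.813 CPM, the KO samples stood 56.5-fold, 14.1-fold and 3.61-fold higher. The log2 fold change was 4.61 ± 1.17 (SE), with an adjusted p of 0.414 by edgeR. Without STR KO replicate 1 it was 3.13, again with no call.

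*Avp* codes for the precursor of vasopressin, the antidiuretic hormone, which is also made in the suprachiasmatic nucleus and in the extended amygdala. It was at 1.75, 0.798 and 0.552 CPM in the WT STR samples and at 72.8, 7.24 and 2.79 CPM in the KO samples. As for *Oxt*, every KO sample lay above every WT sample and replicate 1 was the highest of the KO samples. The log2 fold change was 4.69 ± 1.47 (SE), with an adjusted p of 0.463 by edgeR, and fell to 2.23 without STR KO replicate 1.

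The balance between the neighbouring genes differed among the KO libraries. *Oxt* made up 38.7% of the *Oxt* and *Avp* counts in STR KO replicate 1 (355 of 918 counts, exact 95% interval 35.5% to 41.9%) and 61.3% in replicate 2 (87 of 142, 52.7% to 69.3%). These intervals, which cover counting error only, did not overlap. The share was 51.2% in replicate 3 (21 of 41, 35.1% to 67.1%), and the WT samples, with 25, 12 and 7 counts in all, had intervals too wide to be told from any KO sample.

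*Otp* codes for orthopedia, a homeodomain protein needed for the neurons of the paraventricular and supraoptic nuclei. It was at 0.582, 0.399 and 0.138 CPM in the WT STR samples and at 20.7, 0.526 and 0.279 CPM in the KO samples. KO replicates 2 and 3 lay within the WT range, and replicate 1 was 53.7-fold above the pooled WT level. *Sim1*, which codes for a bHLH-PAS protein that acts in the same neurons, had 48 counts (6.21 CPM) in STR KO replicate 1 and 0 in the other 5 STR libraries. For a count of 0 the exact 95% interval reached up to 0.485 CPM in KO replicate 2 and 0.515 CPM in KO replicate 3. Against the floor of 3 counts over the WT group, the level in replicate 1 was at least 48.4-fold higher. Neither gene passed the expression filter, so no test across genes was made. The exact two-sided permutation p was 0.5 for *Otp* and 1.0 for *Sim1*.

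*Otp* and *Oxt* did not keep 1 ratio across the KO libraries. *Otp* made up 31.1% of the *Otp* and *Oxt* counts in STR KO replicate 1 (160 of 515, exact 95% interval 27.1% to 35.3%) and 4.40% in replicate 2 (4 of 91, 1.21% to 10.9%). In replicate 3 the share was 8.70% (2 of 23, 1.07% to 28.0%). The WT samples had shares of 33.3%, 33.3% and 25.0% from 15, 9 and 4 counts. *Sim1* made up 11.9% of the *Sim1* and *Oxt* counts in replicate 1 (48 of 403, 8.91% to 15.5%). It had 0 of 87 such counts in replicate 2 (exact 95% interval 0% to 4.15%). The level of *Oxt* in KO replicate 2, 14.1-fold over WT, thus came with an *Otp* level inside the WT range and no *Sim1* count.

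**Figure D2:**
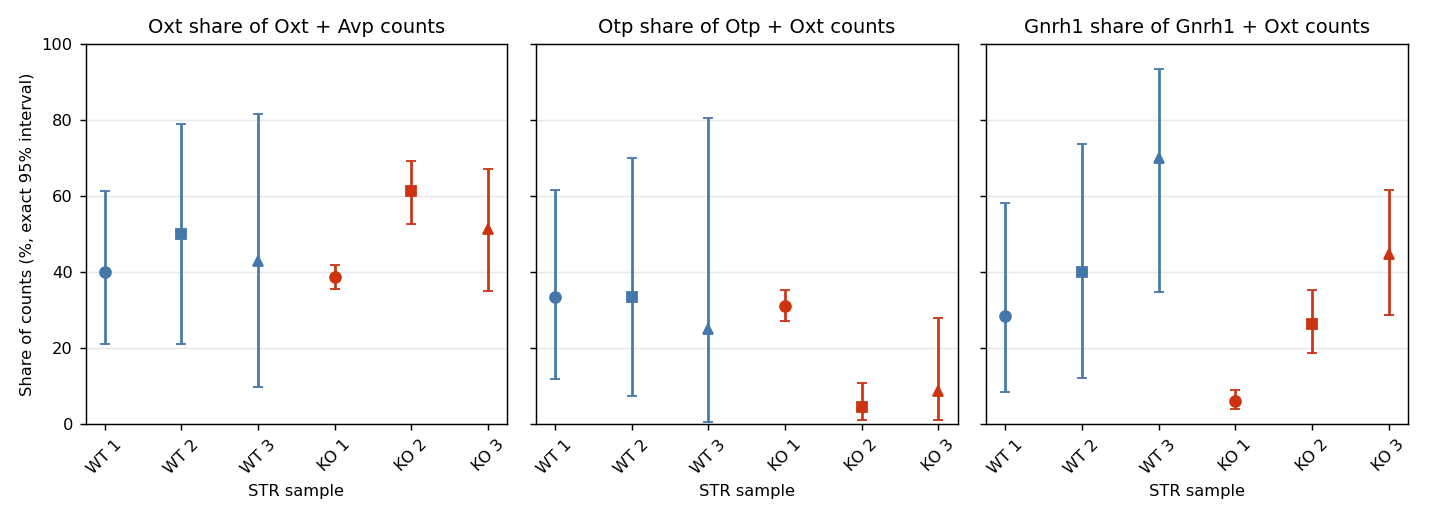
Share of counts in each STR library that fell on *Oxt* out of *Oxt* and *Avp*, on *Otp* out of *Otp* and *Oxt*, and on *Gnrh1* out of *Gnrh1* and *Oxt*, in percent with exact 95% intervals, WT in blue and KO in red. The intervals of KO replicates 1 and 2 do not overlap in any of the 3 panels.

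*Trh* codes for thyrotropin-releasing hormone, which drives the thyroid axis from the paraventricular nucleus and is also made in several other forebrain regions. It was at 12.8, 9.57 and 12 CPM in the WT STR samples and at 68.3, 16.7 and 17.9 CPM in the KO samples. Per length it was the highest of the 10 genes in WT STR, at 8.28 ± 1.21 RPKM (CPM per kilobase of exon, SD, n = 3), followed by *Pomc* at 4.22 ± 1.08 RPKM. *Avp* (1.79 ± 1.09), *Oxt* (1.47 ± 0.698) and *Gnrh1* (1.02 ± 0.423 RPKM, SD, n = 3 each) came next and did not differ from each other beyond their spread. The log2 fold change of *Trh* in STR was 1.59 ± 0.59 (SE), with an adjusted p of 0.533 by edgeR, and 0.60 without STR KO replicate 1. KO replicates 2 and 3 stood 1.45-fold and 1.55-fold above the pooled WT level.

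*Gnrh1* codes for gonadotropin-releasing hormone, which controls the gonadal axis from neurons in the septum and preoptic area. It was at 0.465, 0.532 and 0.966 CPM in the WT STR samples (4, 4 and 7 counts) and at 2.98, 4.08 and 2.37 CPM in the KO samples (23, 31 and 17 counts). Every KO sample lay above every WT sample, and here replicate 2, not replicate 1, was the highest. The log2 fold change was 2.27 ± 0.40 (SE), the smallest standard error of the 5 genes tested, with an unadjusted p of 2.04e-04 and an adjusted p of 0.262 by edgeR. Without STR KO replicate 1 it was 2.30. *Gnrh1* made up 6.09% of the *Gnrh1* and *Oxt* counts in KO replicate 1, 26.3% in replicate 2 and 44.7% in replicate 3.

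Of the 5 genes tested in STR, 4 had every KO sample above every WT sample, a pattern seen in 7.36% of the 15476 genes tested. *Oxt*, *Avp* and *Gnrh1* reached the level of the filter through their KO samples, so the count is a description and supports nothing further. The same holds for the 2-fold group and the ranking below, which use the same values. The list of 10 genes was itself chosen with earlier results of these data known. *Oxt* and *Gnrh1* belonged to 7 genes (0.0452%) whose lowest KO sample lay at least 2-fold above the highest WT sample. Ranked by the ratio of lowest KO to highest WT level among genes with at least 10 counts in every KO sample, *Gal* led at 5.74-fold, followed by *Mab21l2* at 2.71-fold, *Oxt* at 2.52-fold and *Gnrh1* at 2.46-fold. *Gal* codes for galanin, a peptide made in many hypothalamic and basal forebrain neurons, and had levels of 1.05, 0.532 and 0.690 CPM in the WT samples and of 31.7, 6.84 and 6.01 CPM in the KO samples. *AI606473*, *Lhx5*, *Glra3*, *Gzmk*, *Alox8* and *H2-Bl* filled the next places with ratios of 2.08 to 1.91. *Lhx5*, a LIM homeobox gene of hypothalamic and septal neurons, was at 7.89, 2.11 and 1.40 CPM in the KO samples and at most 0.698 CPM in WT.

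Among the genes of the lateral hypothalamus, *Hcrt*, the orexin precursor of wake-promoting neurons, had 0 to 2 counts in WT and 1 to 4 in KO STR samples. *Pmch*, the precursor of melanin-concentrating hormone, had 1 to 2 counts in WT and 2 to 7 in KO samples. In the arcuate nucleus, *Agrp*, the antagonist of melanocortin receptors that promotes feeding, had 2 to 7 counts in WT and 2 to 6 in KO samples. *Pmch* was at 0.233, 0.266 and 0.138 CPM in the WT samples and at 0.906, 0.526 and 0.279 CPM in the KO samples, so every KO sample lay above every WT sample (exact two-sided permutation p 0.1, the smallest possible). *Hcrt* and *Agrp* overlapped. These 3 genes failed the filter. Without it the log2 fold changes by edgeR were 1.36 ± 0.77 (SE) for *Pmch*, 0.81 ± 0.98 for *Hcrt* and -0.17 ± 0.66 for *Agrp*, with adjusted p of 0.799, 0.844 and 0.974, so no difference was detectable at this depth. The exons of *Pmch* overlap *Parpbp* on the other strand and the model of *Agrp* overlaps exons of *Ctcf* and *Gm5914*. Their few counts may be off for that reason, and whether the overlap added or removed reads was not tested.

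*Pomc*, the precursor of melanocortins and beta-endorphin, is made in the arcuate nucleus and in the pituitary. It was at 4.07, 5.72 and 6.90 CPM in the WT STR samples and at 19.1, 4.87 and 3.63 CPM in the KO samples. Replicate 1 was above all WT samples, replicate 2 within their range and replicate 3 below it. The log2 fold change was 0.74 ± 0.62 (SE) with an adjusted p of 0.807 by edgeR, and without STR KO replicate 1 it turned to -0.37.

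*Pomc* moved with the hormone genes of the anterior pituitary. *Gh*, *Prl*, *Cga*, *Tshb* and *Fshb* summed to 159 CPM in STR KO replicate 1, where *Pomc* was highest, and to 28.0 CPM in PFC WT replicate 3, where *Pomc* was second highest at 12.04 CPM. The other STR libraries summed to 2.51 to 27.2 CPM. Over the 12 brain samples the Pearson r between *Pomc* and this sum, both as log2(CPM + 0.5), was 0.919, and 0.869 over the 11 samples without STR KO replicate 1. The points share library, depth and dissection, and the part of pituitary tissue in the *Pomc* level was not tested.

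**Figure D3:**
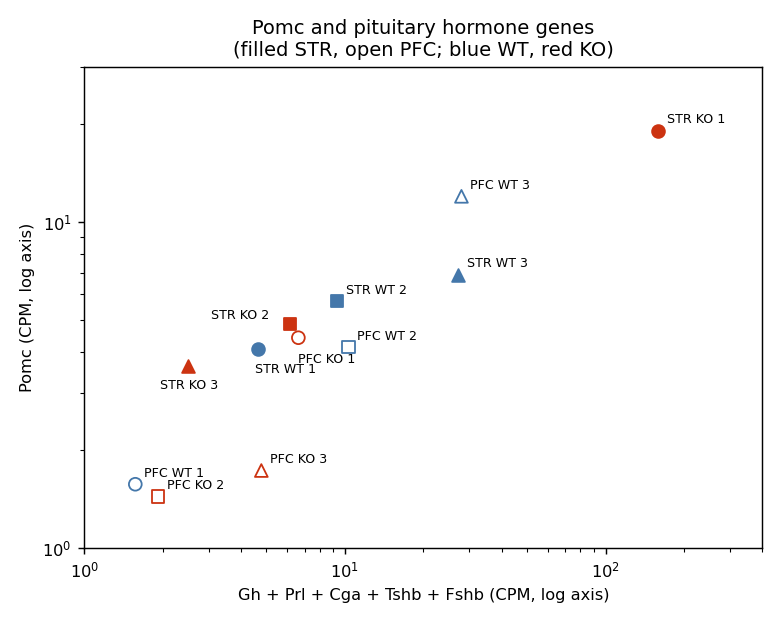
Level of *Pomc* against the summed level of *Gh*, *Prl*, *Cga*, *Tshb* and *Fshb* in the 12 brain samples, both in CPM on logarithmic axes, with STR filled, PFC open, WT in blue and KO in red. *Pomc* is highest at 19.1 CPM in STR KO replicate 1 and next at 12.04 CPM in PFC WT replicate 3, the libraries with the highest pituitary sums.

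In PFC, *Oxt* stayed at 0.121 to 0.509 CPM in WT and 0.368 to 0.721 CPM in KO samples, and *Gnrh1* at 0.296 to 0.725 and 0.398 to 0.842 CPM. *Avp* levels were 0.362, 0.985 and 2.54 CPM for WT, and for KO 0.982, 2.04 and 0.398 CPM. The genotypes overlapped for all 3 genes. *Otp* had 1 or 2 counts in each PFC sample and *Sim1* a single count in 1 KO sample. None of these passed the expression filter in PFC, so the 2 genes tested there were *Trh* and *Pomc*.

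*Trh* was the exception in PFC. It was at 1.57, 3.06 and 3.39 CPM in the WT samples and at 6.26, 5.29 and 5.71 CPM in the KO samples. Every KO sample lay above every WT sample, a pattern seen in 6.78% of 15364 genes tested. WT replicate 1, at 1.57 CPM, lay below the other WT samples. The log2 fold change was 1.13 ± 0.27 (SE), with an unadjusted p of 0.00109 and an adjusted p of 0.0867 by edgeR, so *Trh* missed the threshold that 0.638% of genes passed. With 1 sample left out at a time the log2 fold change ran from 0.86, without WT replicate 1, to 1.30. The adjusted p by edgeR then ran from 0.0593 to 0.349. On all samples DESeq2 gave *Trh* an adjusted p of 0.0893, and edgeR's exact test called it (0.00419). The exact test called 136 of 15364 genes as higher. *Pomc* was at 1.57, 4.14 and 12.04 CPM in the WT samples and 4.42, 1.44 and 1.73 CPM in the KO samples of PFC, with a log2 fold change of -1.11 ± 0.83 (SE) and an adjusted p of 0.725 by edgeR.

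The difference of the KO effect between STR and PFC was tested as an interaction over the 12 brain samples, where 0.00624% of 16028 genes passed. It was 4.0 ± 2.47 (log2, SE) for *Oxt*, 4.67 ± 2.33 for *Avp* and 2.01 ± 0.69 for *Gnrh1*, with adjusted p of 0.905, 0.832 and 0.647 by edgeR. *Trh*, higher in the KO samples of both regions, had a difference of 0.43 ± 0.84 (SE), which turned to -0.53 without STR KO replicate 1, and *Pomc* one of 1.85 ± 1.14 (SE), which fell to 0.75. Without STR KO replicate 1 the values were 2.53 for *Oxt*, 2.25 for *Avp* and 2.07 for *Gnrh1*. At an unadjusted p under 0.05 edgeR's quasi-likelihood test with all samples and no block listed *Gnrh1* alone (0.0111). It listed *Oxt*, *Avp* and *Gnrh1* without that library, and *Oxt*, *Pomc* and *Gnrh1* with the replicate block. On all samples without a block, edgeR's likelihood ratio test and DESeq2 each listed *Oxt*, *Avp* and *Gnrh1*. None was called in any of these fits. Over all genes, the quasi-likelihood test listed 624 of 16028 as higher at that p, 423 of 16250 without that library and 899 of 16028 with the block. The likelihood ratio test listed 639 of 16028 as higher and DESeq2 525 of 25714. *Oxt* and *Gnrh1* reached the level of the filter through their STR KO samples, so these lists are a description and support nothing further. No gene of the list was thus shown to respond differently in the 2 regions.

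Between the regions of WT mice, *Trh* was called higher in STR than in PFC, with a log2 fold change of 2.08 ± 0.26 (SE) and an adjusted p of 2.09e-04 by edgeR, where 11.4% of 15555 genes were called higher and 24.4% were called in either direction. *Pomc* did not differ beyond its spread, at -0.05 ± 0.55 (log2, SE). *Oxt* (0.792 ± 0.375 against 0.341 ± 0.199 CPM), *Avp* (1.03 ± 0.630 against 1.30 ± 1.12 CPM) and *Gnrh1* (0.654 ± 0.272 against 0.510 ± 0.215 CPM, SD, n = 3 each) were too low for the test.

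In cultured cells *Trh* was the only gene of the list with a sizeable level. It was at 193 and 264 CPM in the WT and at 223 and 370 CPM in the KO ESC samples. In NPCs it had 1 to 7 counts per sample, at most 0.494 CPM. The order of its levels was thus ESCs, STR, PFC and NPCs, with no overlap between ESCs and STR or between PFC and NPCs. Over both genotypes, STR was above PFC without overlap too. The ESC genotypes overlapped, with a log2 fold change of 0.37 ± 0.32 (SE) and an adjusted p of 1.0 by edgeR.

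The other genes had at most 16 counts in any sample of cultured cells. *Oxt* had 1 count in 4 ESC samples and 1 in 6 NPC samples, and *Avp* and *Hcrt* had 0 in all 10. *Pomc* had 9 to 16 counts in ESCs, with a log2 fold change of 0.68 ± 0.40 (SE) and an adjusted p of 1.0 by edgeR. *Gnrh1* had 0 to 3 counts in ESCs and 2 to 10 in NPCs, *Agrp* 0 to 5 and 3 to 13, and *Pmch* 4 to 10 and 1 to 6. No gene of the list passed the filter in NPCs. In the fit without a replicate block edgeR called no gene of the list in either cell type and listed none at an unadjusted p under 0.05, and DESeq2 called none. At that p edgeR's fit without the block listed 108 of 15080 genes as higher and 63 as lower in ESCs. With the block, *Trh* was called in ESCs (log2 fold change 0.35, adjusted p 2.18e-07 by edgeR). That fit called 308 of 15080 genes higher and 205 lower. Over all genes, the fit without the block called 0% of 15080 genes in ESCs and 0.00697% of 14351 in NPCs.

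**Figure D4:**
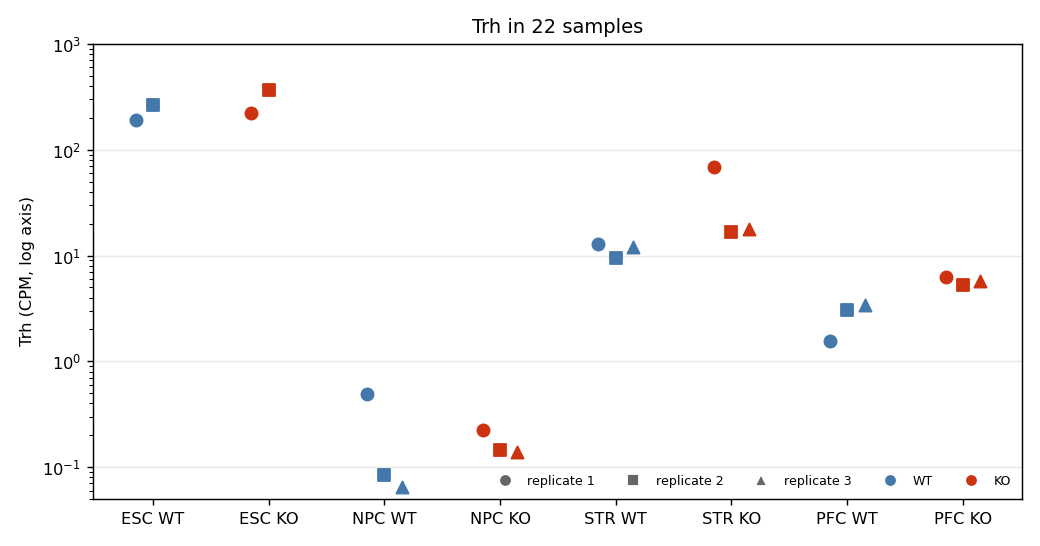
Level of *Trh* in all 22 samples, in CPM on a logarithmic axis, by tissue or cell type and genotype, with the replicate number as the point's shape. ESC samples lie at 193 CPM or above, NPC samples at 0.494 CPM or below, and the KO samples lie above the WT samples in STR and in PFC.

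Genes whose levels followed *Oxt* over the 12 brain samples were ranked by Pearson r of log2(CPM + 0.5) among 18893 genes. The 8 highest were *Lhx5* (0.973), *Rasef*, *Uncx*, *Lhx1os*, *Avp* (0.949), *Pnma3*, *Gal* (0.946) and *Dnajc12*. For *Otp* they were *Sim1* (0.970), *Fshb* (0.957), *Nmur2*, *Cga* (0.947), *Tac2*, *Uncx*, *Six6* and *Vipr2*. *Fshb* and *Cga*, subunits of pituitary glycoprotein hormones, thus followed *Otp* nearly as closely as *Sim1* did. For *Gnrh1* they were *BC030500* (0.907), *Trim27*, *4632428C04Rik*, *Gal* (0.885), *Scn11a*, *Tspan6*, *Psmd5* and *4930579K19Rik*. The samples share library and depth, and for *Otp* the order rests on STR KO replicate 1, the only library where it was well above the floor.

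That library was also the only one in STR with counts on 3 genes, each with at least 10 there and 0 in the other 5. They were *Sim1* with 48 counts, *Serpina3m* with 18 and *Prdm13*, a neural transcription factor gene, with 12. STR WT replicate 3 had 1 gene of this kind and the other 4 libraries had 0. *Serpina3m* reached 24 counts in PFC, whereas *Prdm13* had 0 in every PFC sample.

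Hormone genes of the anterior pituitary, a gland attached below the hypothalamus, stood out in the same library. The 8 pituitary genes counted summed to 160 CPM in STR KO replicate 1, against 4.65 to 27.3 CPM in WT and 2.51 and 6.18 CPM in the other KO samples. *Gh* was at 108 CPM there and *Prl* at 35.6 CPM, while *Cga* was at 8.80 and *Fshb* at 5.69 CPM, against at most 0.279 and 0.276 CPM in the other STR samples. *Gh* was the only one to pass the filter, and it was not called (log2 fold change 1.74 ± 1.58, SE, adjusted p 0.835 by edgeR). Its log2 fold change turned to -1.59 without STR KO replicate 1.

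Marker genes of cortical projection neurons were low in sum in the same library, at 181 CPM over 8 genes against 507 to 697 CPM in the other 5. *Slc17a7*, a vesicular glutamate transporter of cortical neurons, was at 45.5 CPM there against 277 to 395 CPM, and *Emx1*, a cortical homeobox gene, at 0.518 CPM against 6.57 to 11.4 CPM. Not every gene of the list was low there. *Cux2* was at 61.8 CPM against 51.6 to 63.4 CPM, and *Rorb* at 38.7 CPM against 41.8 to 54.5 CPM. The log2 fold change between genotypes was positive for 1 of the 8 (*Cux2*, 0.16) and negative for 7. Over the 8 genes the median log2 fold change was -0.57 against 0.00 over all genes, and -0.16 without STR KO replicate 1, and 1 of the 8 was listed as lower at an unadjusted p under 0.05 (*Fezf2*, -0.60), against 3.02% of all genes. Striatal projection neuron genes had negative log2 fold changes in all 10 cases, with a median of -0.14, 2 listed at that p (*Foxp1* at -0.29 and *Rgs9* at -0.23) and a median of -0.04 without that library. The part of these shifts in the levels of *Oxt*, *Avp*, *Otp*, *Sim1* and *Trh* was not tested.

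Genes of the septum and basal forebrain, where GnRH neurons lie and cholinergic projection neurons arise, were higher in sum in the KO STR samples. They summed to 209 to 302 CPM in WT and 345 to 467 CPM in KO samples without overlap. All 9 genes had positive log2 fold changes, with a median of 0.48, and 6 were listed as higher at an unadjusted p under 0.05, against 5.67% of all genes. Without STR KO replicate 1 the median was 0.39 and 4 were listed, against 458 of 15684 genes listed as higher. *Lhx8*, a LIM homeobox gene of cholinergic neurons, was at 16.4 to 23.0 CPM in WT and 54.2, 32.8 and 37.4 CPM in KO samples, with a log2 fold change of 1.05 ± 0.20 (SE) and an adjusted p of 0.291 by edgeR. *Ngfr*, the neurotrophin receptor of the same neurons, was at 7.98 to 9.19 CPM in WT and 51.1, 14.9 and 30.3 CPM in KO. *Trpc4* (0.37 ± 0.10, log2, SE) and *Gbx1* (0.77 ± 0.21) were higher in every KO sample too. None was called, and the part of this shift in the *Gnrh1* level was not tested.

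**Figure D5:**
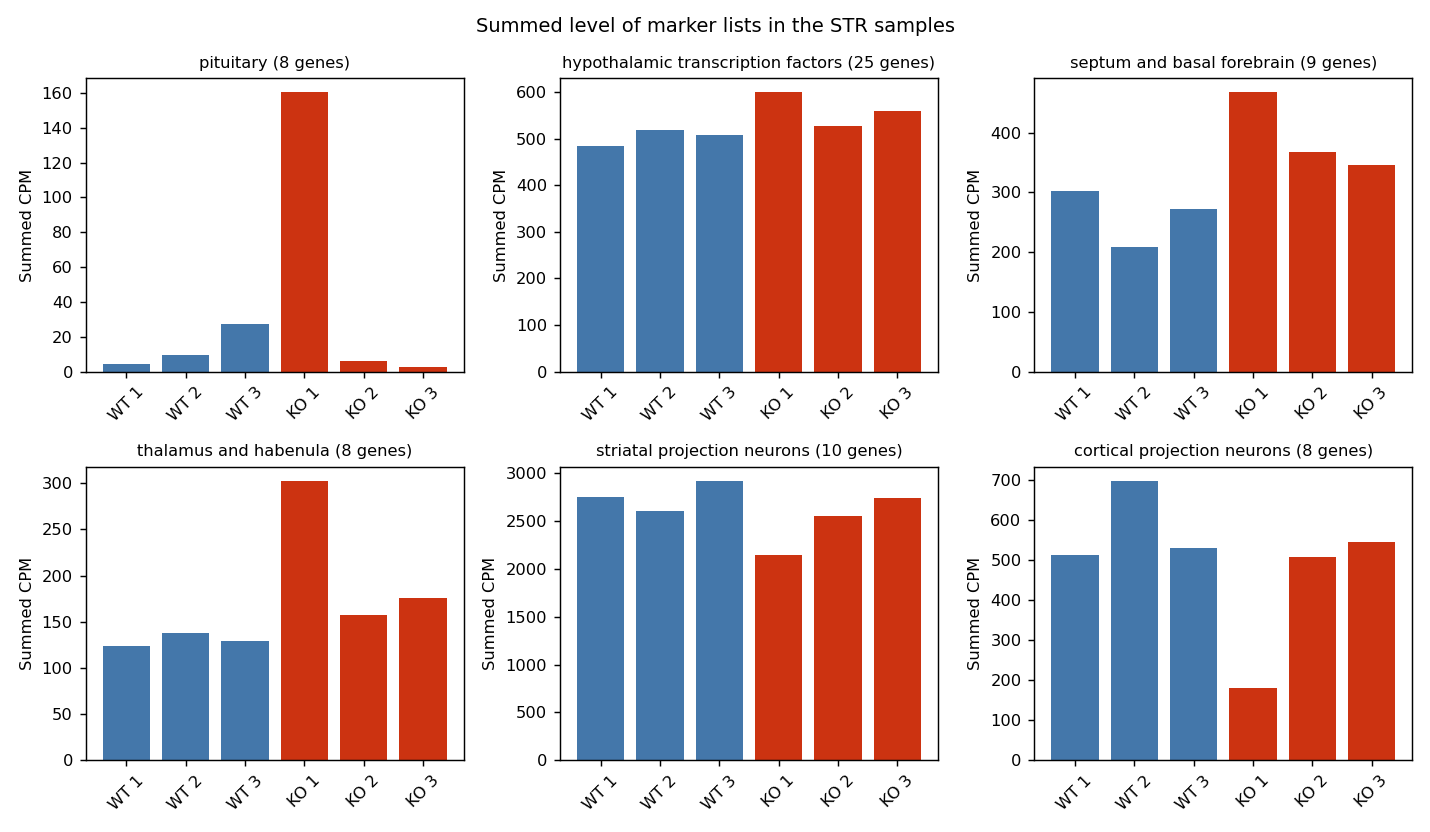
Summed level of 6 marker lists in each STR library, in CPM on axes that start at 0, with WT in blue and KO in red. The pituitary sum reaches 160 CPM in KO replicate 1 and is 27.3 CPM or less in the others, whereas the septum and basal forebrain sum is higher in all 3 KO samples (345 to 467 CPM) than in the WT samples (209 to 302 CPM).

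Other transcription factors of the hypothalamus showed both patterns. Of 25 genes counted, 8 passed the filter, 7 of them with positive log2 fold changes (median 0.16), and 2 were listed as higher at an unadjusted p under 0.05, against 5.67% of all genes. The median was 0.10 and 1 was listed as higher without STR KO replicate 1, against 458 of 15684 genes. *Nkx2-1*, which is needed for ventral hypothalamus and for basal forebrain interneurons, was at 8.64 to 11.3 CPM in WT and 23.2, 18.4 and 15.5 CPM in KO samples. Its log2 fold change was 0.90 ± 0.18 (SE) with an adjusted p of 0.291 by edgeR. *Nhlh2*, a bHLH gene of the arcuate nucleus, had levels of 1.05, 1.33 and 0.690 CPM for WT and of 6.21, 1.05 and 2.51 CPM for KO, so the groups overlapped (1.67 ± 0.62, log2, SE). *Pou3f2* (0.20) and *Six3* (0.12) were the next by p. *Fezf1*, a zinc finger gene of the ventromedial nucleus that failed the filter, was at 8.28 CPM in STR KO replicate 1 and at most 0.838 CPM in the other STR samples. *Nr5a1*, another gene of that nucleus that failed the filter, had 0 counts in STR KO replicate 1. It had 4, 2 and 0 counts in the WT STR samples and 2 and 0 in KO replicates 2 and 3.

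Among other hypothalamic peptides, 11 of 19 genes passed the filter, with a median log2 fold change of -0.03, and of -0.07 without STR KO replicate 1. *Gal* was the only one listed as higher at an unadjusted p under 0.05, at 4.25 ± 0.88 (SE), and *Npy* the only one listed as lower, at -0.25 ± 0.10 (SE), with adjusted p of 0.397 and 0.535 by edgeR. Without that library 1 was listed as higher and 0 as lower, against 458 and 325 of 15684 genes. *Pdyn* (-0.17) and *Tac2* (0.67), the dynorphin and neurokinin B precursors, were the next by p. *Tac2* was at 46.1 CPM in STR KO replicate 1 and 15.4 to 19.0 CPM in the other 5.

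Of 15 receptors of these peptides, 9 passed the filter in STR, 4 listed as higher and 1 as lower at an unadjusted p under 0.05, against 5.67% and 3.02% of all genes, and none was called. With STR KO replicate 1 left out, 2 were listed as higher and 1 as lower, against 458 and 325 of 15684 genes. *Mc4r*, a receptor of the *Pomc* and *Agrp* products, was at 8.26, 7.84 and 8.83 CPM in WT and 15.1, 12.8 and 16.3 CPM in KO samples. Its log2 fold change was 0.84 ± 0.17 (SE) with an adjusted p of 0.292 by edgeR. It was higher in every KO sample and did not peak in replicate 1. Of the orexin receptors, *Hcrtr2* (0.77 ± 0.21, log2, SE) was above WT in every KO sample and *Hcrtr1* (0.90 ± 0.36) overlapped, whereas *Trhr2*, a receptor of thyrotropin-releasing hormone, was lower in every KO sample (-0.93 ± 0.23, SE). The median over the 9 receptors was 0.40, and 0.42 without STR KO replicate 1.

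The enzymes that cut, amidate and degrade these peptides all passed the filter, and none of 11 was listed at an unadjusted p under 0.05 in STR. The share over all genes was 8.70% in either direction, and a count of 0 among 11 lies near it. Of the 11 enzymes, 9 had positive log2 fold changes and 2 negative ones. Their summed level was 1330 to 1462 CPM in WT and 1397 to 1483 CPM in KO samples. Their median log2 fold change was 0.14, or 0.08 without STR KO replicate 1, where again 0 were listed. Over all genes, 458 of 15684 were then listed as higher and 325 as lower. By p the first were *Qpct* (0.26), which makes the pyroglutamate end of *Trh* and *Gnrh1* peptides, *Lnpep* (0.70), the oxytocinase, *Trhde* (0.27), which degrades thyrotropin-releasing hormone, and *Pam* (0.14), the amidating enzyme.

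Markers of neighbouring tissues were also examined. Of 8 thalamus and habenula genes, 6 passed the filter, all with positive log2 fold changes, and 2 were listed as higher (5.67% of all genes), *Gbx2* (0.93 ± 0.19) and *Calb2* (0.83 ± 0.18, log2, SE), each above WT in every KO sample, and the list summed to 302 CPM in STR KO replicate 1, 157 and 175 CPM in the other KO samples and 124 to 138 CPM in WT. The thalamus median was 0.74, and without STR KO replicate 1 it was 0.31, with 2 of the 6 genes negative and 2 listed as higher. Over all genes, 458 of 15684 were listed as higher without that library. Of 6 ependyma and tanycyte genes, all tested, 2 were listed as higher, *Gpr50* (1.32 ± 0.39), a tanycyte gene of the third ventricle, and *Rarres2* (0.52 ± 0.23, log2, SE). Their median was 0.46, and 0.39 with 2 listed without that library. Of 8 choroid plexus genes, 5 passed and 2 were listed as higher, *Prlr* (2.23 ± 0.67) and *Clic6* (0.32 ± 0.12, log2, SE), while *Ttr*, which choroid plexus makes in large amounts, overlapped between groups (-0.20 ± 0.79). The choroid plexus median was 0.32, and 0.29 with 1 listed without that library. Oligodendrocyte genes, 8 of 8 tested, had no member listed in STR (median -0.10), against 8.70% of all genes in either direction. Without STR KO replicate 1, 5 of the 8 were listed as lower in STR, against 325 of 15684 genes, and the median was -0.27. Then 6 had every KO sample below every WT sample, a pattern whose share over all genes was not computed without that library. In PFC 5 of the 8 were called lower in KO, against 0.475% of all genes, among them *Mog* at -0.95 with an adjusted p of 0.00369 by edgeR. The part of these shifts in the peptide gene levels was not tested.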

How the data were processed

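Reads were aligned by the authors to GRCm38 (STAR) and counted per gene on an Ensembl annotation (HTSeq). Raw counts were deposited, 1 table per sample and without normalization. The submitters' processing notes name CASAVA 1.7, while no version of the aligner or counter is given in the sources used here. Strand was not used for the ESC and NPC counts by their file labels and is not given for the brain samples, so overlapping genes cannot be told apart. Rows for unassigned reads were left out of library sizes. They held 9.38% to 15.4% of STR reads as reads on no gene and 8.01% to 8.61% as multiply mapped reads. Of 39179 gene identifiers, 37693 (99.709% of counts) were named from GENCODE M21 on GRCm38, which also gave exonic lengths for RPKM. CPM and RPKM were computed here from the counts, without TMM factors, and intervals are exact (Clopper-Pearson) at 95% and cover counting error only. No column of another series was present.

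For each tissue, KO samples were set against WT samples in edgeR 4.0.16 (R 4.3.3, quasi-likelihood test, robust, TMM, expression filter, FDR under 0.05 over all genes tested), and WT STR with WT PFC and the interaction in the same way. Adjusted p-values are Benjamini-Hochberg values over all genes tested, and p-values of single genes by exact permutation are two-sided. Alternatives were DESeq2 1.42.0, RLE factors, no filter, the exact or likelihood ratio test, both regions fitted together, a replicate block and leaving out each sample. The code was tested on simulated counts.

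The 10 genes and the marker lists were chosen with earlier results of these data known. Named beside them are up to 4 genes per list with the smallest p in STR, the 8 genes most like *Oxt*, *Otp* and *Gnrh1* among those with at least 20 counts over the brain samples, and the leading genes of the 2 rankings given. *Fezf1*, *Nr5a1*, *Emx1*, *Slc17a7*, *Rorb*, *Ttr*, and the pituitary genes other than *Gh*, fall outside this rule and were chosen after their values were seen. *Kiss1*, *Slc18a3* and *Lhb* were not analysed here.

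Replicate numbers shared by WT and KO were checked by correlating deviations from group means. Same-numbered samples had r of 0.524 to 0.705 in NPCs, where the numbers pair the samples, and of -0.02 to 0.13 in STR and -0.03 to 0.05 in PFC, where they do not. ESCs had only 2 pairs. Between STR and PFC of the same genotype r was 0.144 to 0.376, so the numbers pair the regions. The main fits of the WT regions and of the interaction did not use this pairing. With the replicate block, *Trh* between the WT regions was at 2.07 (log2, adjusted p 6.80e-06 by edgeR), where 2569 of 15555 genes were called higher. The interaction was then 3.85 ± 1.25 (log2, SE) for *Oxt* and 1.63 ± 0.50 for *Pomc*, and no gene of the list was called for it. All 20 pairs of replicates differed by more than sampling noise, with a chi-square of 1.89 to 40.5 for each degree of freedom.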

Additional observations from a re-analysis of the deposited data

How the results depend on the processing

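With edgeR's quasi-likelihood test 0 of the 10 genes were called in STR. The count was 1 with DESeq2 (*Oxt*, adjusted p 0.0152), 1 without the filter (*Gnrh1*, 0.0253), 3 with the exact test (*Gnrh1*, 6.65e-04, *Oxt*, 0.00601, and *Avp*, 0.0422), 1 with the replicate block (*Oxt*, 0.0187) and 1 with both regions fitted together (*Gnrh1*, 0.0476). All of these were higher in KO. In that order, the fits called 42 of 14928, 18 of 24389, 74 of 15476, 6 of 15476 and 8 of 16028 genes as higher. In PFC the count went from 0 to 1 (*Trh*) without the filter (0.00685) and with the exact test (0.00419), and in ESCs from 0 to 1 (*Trh*) with the replicate block. As higher over all genes, those PFC fits called 137 of 24173 and 136 of 15364, and the ESC fit 308 of 15080. The cause of these changes in the count was not tested. The block changed no other call, and in STR and PFC not every sample correlated best with its own number. Directions were compared for the genes that passed the filter with all samples. In STR, PFC, the interaction and between the WT regions, they changed only for *Pomc* and for the *Trh* interaction. *Pomc* was at -0.37 in STR without KO replicate 1. Between the WT regions it was at 0.0585 with the replicate block, 0.14 without STR WT replicate 1 and 0.89 without PFC WT replicate 3. The *Trh* interaction was at -0.53 without STR KO replicate 1. In ESCs *Trh* turned from 0.37 to -0.04 without KO replicate 2.

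Leaving out 1 sample at a time gave 0 calls in STR, PFC, NPCs, ESCs and the interaction, and 1 (*Trh*) between the WT regions. Log2 fold changes in STR then ran from 3.13 to 5.11 for *Oxt*, 2.23 to 5.32 for *Avp*, 0.60 to 1.92 for *Trh*, -0.37 to 1.11 for *Pomc* and 2.05 to 2.63 for *Gnrh1*, with adjusted p of 0.107 to 0.751 for *Gnrh1*. The *Trh* interaction ran from -0.53 to 0.78, and *Pomc* between the WT regions from -0.51 to 0.89. The lowest value came without STR KO replicate 1 for *Oxt*, *Avp*, *Trh* and *Pomc*. At this depth 5 of the 10 genes could not be tested in STR, and 8 could not in PFC.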
